A study of Saccharomyces cerevisiae with 16 samples.

Results

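The box C/D small nucleolar RNA genes of the budding yeast Saccharomyces cerevisiae were followed across 4 comparisons of cells given a kinase inhibitor or DMSO. The members were the 47 genes annotated as box C/D small nucleolar RNAs, taken by name and not by any measured value, out of 6885 features listed in at least 1 of the deposited tables. They were divided by how they are made: 24 are transcribed from a promoter of their own, 17 lie in 5 clusters that are transcribed together, and 6 lie inside introns of protein-coding host genes. By role, 26 guide changes to 25S ribosomal RNA, 11 to 18S and 4 to both, and 2 guide acetylation of 18S. The rest are both genes of U3, the U14 gene snR128, and snR190. All 47 were listed in both CMK tables, and 46 in each 3MBPP1 table, where snR73 has no row.

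Box C/D small nucleolar RNAs pair with ribosomal RNA and direct the methyltransferase Nop1, held with Nop56, Nop58 and Snu13, to methylate the ribose of a chosen base. U3 and U14 act instead, or also, in the cutting of the ribosomal precursor. Most genes with their own promoter are made by RNA polymerase II and end by the Nrd1-Nab3-Sen1 route. Clustered ones are cut apart by the RNase III enzyme Rnt1, and intronic ones are freed from the spliced intron of the host.

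All cells lacked the chromosomal copy of HRR25, which encodes a casein kinase 1 family kinase: it was replaced by kanMX4 in a his3Δ leu2Δ ura3Δ background, and each strain lived on a plasmid copy. The hrr25as strain carried hrr25 with I82G on pRS315, a LEU2 plasmid, the hrr25is strain carried hrr25 with both I82G and I23C on pRS315, and the WT strain carried unaltered HRR25 on pRS316, a URA3 plasmid. Cultures in YPD at 30°C were treated for 1 hour once their OD600 was 0.3. The groups, 2 samples each and 16 in all, were 3MBPP1 and DMSO in hrr25as, 3MBPP1 and DMSO in WT, CMK and DMSO in hrr25is, and CMK and DMSO in WT, with separate DMSO samples for each. 3MBPP1 is an analogue of the kinase inhibitor PP1, and CMK is not spelled out in the labels. The treatment protocol names only DMSO and CMK, so the groups follow the sample titles. Total RNA was depleted of ribosomal RNA and sequenced as single reads of 100 bases.

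Each deposited table compares 2 conditions that its header calls A and B, without saying which of them was DMSO. Each fold change below divides condition B by condition A, so whether the inhibitor raised or lowered a gene is not known here. Whole reads of single libraries were recovered from the condition means, and depth was 4275991 to 34122412 counted reads per library. The libraries of a condition are told apart only by size factor, and values are given with the smaller one first. The larger condition B library of the CMK table of WT equalled that of the CMK table of hrr25is at all 6760 features. This library of 34122412 reads had 1629 RPM (reads scaled to library size) on URA3 and 0.44 RPM on LEU2, whereas the other hrr25is libraries with CMK or DMSO had 2.48 to 5.23 on URA3 and 75.4 to 85.8 on LEU2. It carries the plasmid marker of WT and goes against the hrr25is label, so the counts and medians of the CMK tables are given as deposited and also from limma fits without it, which leave 1 condition B library in a table, and 15 distinct libraries remained. The 3MBPP1 libraries of WT had reads on both markers, 91.0 to 120 RPM on URA3 and 38.6 to 54.4 RPM on LEU2. Such LEU2 reads go against the leu2Δ background and URA3 plasmid of the WT label. The CMK libraries of WT had 0.132 to 1.67 RPM on LEU2 and 1541 to 1842 RPM on URA3. On HRR25 they had 691 to 864 RPM, against 117 to 166 RPM in the 3MBPP1 libraries of WT. The WT sets are therefore not alike, and the reason was not tested. Those of hrr25as with 3MBPP1 had 71.5 to 99.4 RPM on LEU2 and no row for URA3.

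The sequences of members on which the results turn are shown here, as they stand in the R64 RefSeq reference genome (the same assembly as sacCer3), so that their guides can be compared. Capitals mark the guide, the longest run of at least 8 bases that pairs by Watson-Crick rules with ribosomal RNA and covers the annotated target base. The first 5 were higher in condition B of hrr25as, snR61 had the largest deposited fold change in WT with CMK, and snR190 had the highest level. The sixth gene higher in hrr25as, snR48, has no such run for its targets G2791 and G2793 in 25S and is not shown.
snR56: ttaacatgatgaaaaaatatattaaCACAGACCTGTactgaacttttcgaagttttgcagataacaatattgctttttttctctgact
snR71: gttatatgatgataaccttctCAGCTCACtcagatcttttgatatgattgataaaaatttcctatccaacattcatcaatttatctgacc
snR66: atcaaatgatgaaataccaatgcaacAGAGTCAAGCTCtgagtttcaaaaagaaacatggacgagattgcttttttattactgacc
snR47: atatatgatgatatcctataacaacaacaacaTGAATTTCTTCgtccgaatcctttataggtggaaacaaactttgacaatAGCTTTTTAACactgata
snR13: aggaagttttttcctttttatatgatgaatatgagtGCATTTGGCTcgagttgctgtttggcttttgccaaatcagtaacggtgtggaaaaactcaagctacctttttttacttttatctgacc
snR61: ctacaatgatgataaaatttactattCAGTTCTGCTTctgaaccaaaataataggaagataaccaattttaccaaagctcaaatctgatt
snR190: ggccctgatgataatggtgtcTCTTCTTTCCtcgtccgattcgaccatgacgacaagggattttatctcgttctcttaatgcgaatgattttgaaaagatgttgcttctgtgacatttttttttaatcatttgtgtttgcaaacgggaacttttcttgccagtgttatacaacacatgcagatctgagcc
The gene of snR56 lies at chrII:88190-88277 on the plus strand and its guide covers G1428 of 18S. The gene of snR71 lies at chrVIII:411228-411317 on the plus strand and its guide covers A2946 of 25S. That of snR66, at chrXIV:586090-586175 on the plus strand, has a guide to U2417 of 25S. The gene of snR47, at chrIV:541602-541700 on the minus strand, has 2 guides, the first to A2220 of 25S and the second to A619 of 18S. A single run in snR13, at chrIV:1402919-1403042 on the plus strand, covers both A2280 and A2281 of 25S. The genes of snR61, at chrXII:794486-794575 on the minus strand, and snR190, at chrX:139761-139950 on the minus strand, have runs over A1133 and the predicted target G2395 of 25S. None of these 7 overlaps another annotated gene.

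A shared layout underlies these sequences. The letters TGATGA, the core of box C, stood in the first 25 bases of 36 of the 47 genes, read on the sense strand only, against 1.18% of 6021 protein-coding genes. The letters CTGA of box D stood in the last 25 bases of 45 of 47, against 10.8% of the protein-coding genes. The members were taken by their annotation as box C/D RNAs, so these contrasts describe the class and do not test it. Of 53 annotated or predicted methylation targets whose letter matched the reference, 43 lay in a run of at least 8 paired bases, over 38 members, the longest of 16 bases. In 29 of the 43 the base that pairs with the target lay exactly 5 bases before a CTGA, as it does for snR56, snR66 and snR61 and for the second guide of snR47. In the run of snR13 and in that of snR71 no CTGA follows at that distance.

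Levels of these RNAs spanned several orders of magnitude. In reads per kilobase scaled to library size (RPKM), snR190 was the highest member in every table and condition, with means of 137286 to 1035728, and snR17a, snR39B, snR4, snR61, snR66 and snR17b were often next. Among the lowest 7 in every table and condition were snR53, snR60 and snR65, joined by snR72 in condition A of WT with 3MBPP1 and in both conditions of hrr25as. In both CMK tables snR73 was the lowest, and it had 1.93 to 27.6 in the libraries of the CMK tables. Box C/D genes took 4.16% and 3.51% of counted reads in condition B of hrr25as with 3MBPP1, against 4.08% and 4.30% in condition A. For WT with 3MBPP1 the shares were 22.4% and 19.9% in condition B, against 21.8% and 17.9% in condition A. In hrr25is with CMK they were 6.76% and 6.20% in condition B, the second from the library present in both tables, against 9.89% and 11.6% in condition A. In WT with CMK they were 2.40% and 6.20% in condition B, against 4.12% and 3.42% in condition A. The 95% Wilson intervals reach at most 0.0252 percentage points to either side, covering counting error only. Most of each share was 1 gene: snR190 took 72.9% to 94.1% of the members' reads in all libraries but the smaller condition B library of WT with CMK, where it took 16.1%. Without snR190 the members took 0.266% to 2.02% of reads.

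The hrr25as and WT libraries with 3MBPP1 also differed in level. Of 46 members, 27 were lower in RPKM in all 4 hrr25as libraries than in all 4 WT libraries, and 1 was higher in all 4. The share of all features that did so is not given, so these counts do not set the members apart. The median ratio of means was 0.370, and snR61 was lowest at 0.0150, with 26.0 to 206 in hrr25as and 3032 to 11839 in WT. Strain and table cannot be told apart in these levels. Levels below are therefore compared within tables only, and where fold changes are compared between tables the same limit holds.

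**Figure D1:**
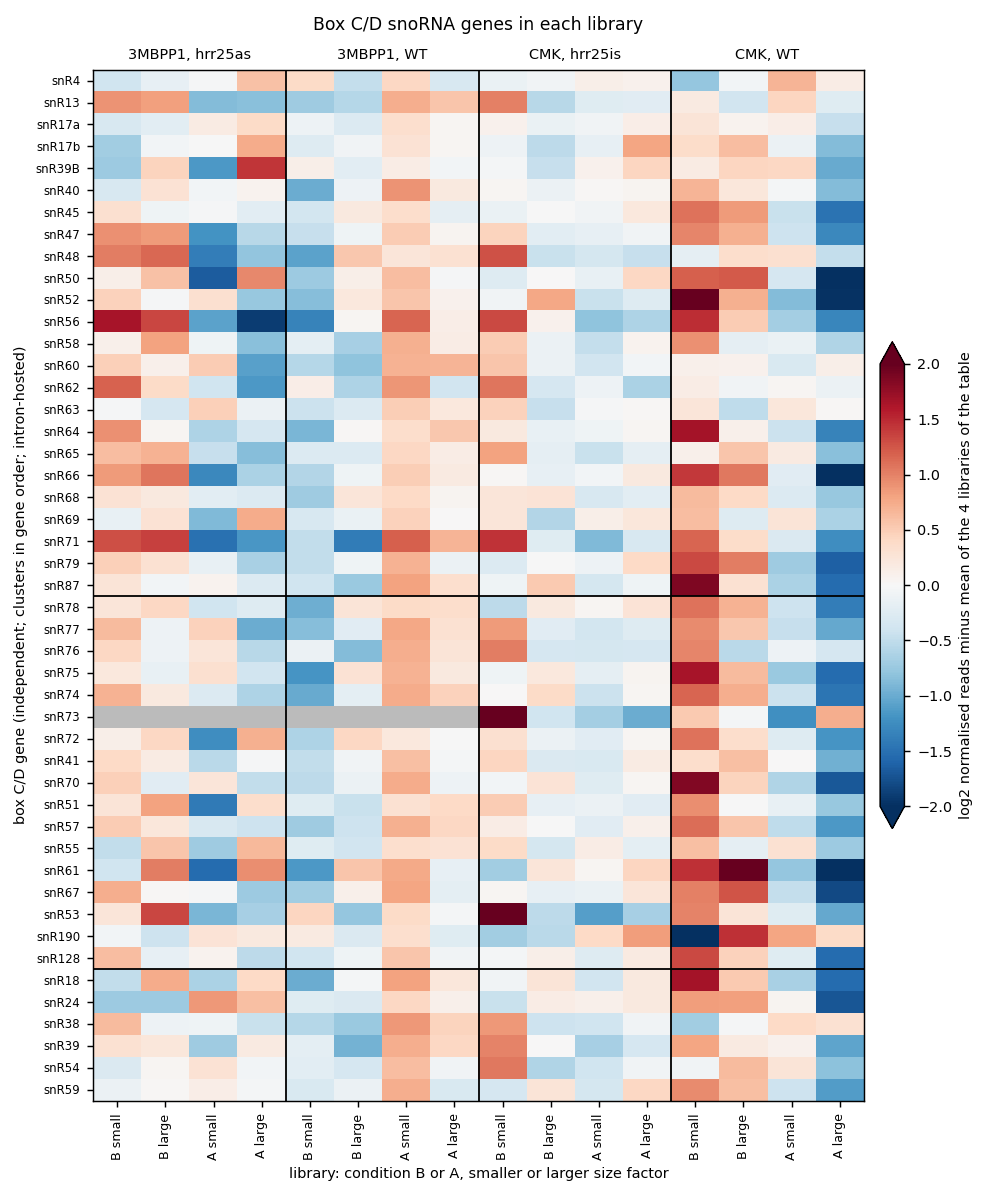
Log2 normalised reads of each box C/D gene (rows, by transcription class) in each library (columns, 4 per table, condition B left of condition A), relative to the mean of the 4 libraries of its table; grey marks snR73, which has no row in the 3MBPP1 tables. The 2 condition B columns hold a set of red independent genes in hrr25as and are mostly blue in WT with 3MBPP1, and in WT with CMK the larger condition A library is blue in most rows.

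In hrr25as with 3MBPP1, a set of independently transcribed guides was higher in condition B. In the authors' deposited table, 6 of 46 members passed an adjusted p under 0.05 as higher, where 1.2% of all features did, and 0 passed as lower, where 3.12% did. All 6 were among the 24 independent genes: 0 of 16 cluster members and 0 of 6 intronic ones passed, although no test of the difference between classes was made. The median log2 fold change was 0.39, against 0.02 over all features, with 36 members above 0 and 10 below, and 40 above 0 when scaled by total reads. By class the median was 0.43 for independent genes, 0.44 for clusters and 0.09 for intronic genes. Condition B libraries lay above both condition A libraries at 19 members (24.4% of features) and below at 5 (23.9% of features). In RNA from whole cultures, a change in how many cells hold a transcript and a change in its amount per cell cannot be told apart.

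snR56, the 18S guide to G1428, had 199.8 and 161 normalised reads in condition B, against 30.3 and 17.1 in condition A. Condition B lay far above condition A, with a log2 fold change of 2.93, the highest of the members (deposited DESeq adjusted p = 5.99e-08). snR71, a guide to A2946 of 25S, had 98.8 and 104 normalised reads in condition B, against 14.4 and 17.99 in condition A, again far apart. Its log2 fold change was 2.65 (deposited DESeq adjusted p = 1.09e-04). snR48, a 25S guide to G2791 and G2793, had 405 and 443 normalised reads in condition B, against 76.5 and 116 in condition A. Its log2 fold change was 2.14 (deposited DESeq adjusted p = 2.94e-06), and the groups did not overlap. snR66, the guide to U2417 of 25S, had 222 and 257 normalised reads in condition B, against 50.5 and 79.7 in condition A, a log2 fold change of 1.88 (deposited DESeq adjusted p = 3.83e-04). The dual guide snR47 had 142 and 137 normalised reads in condition B, against 33.2 and 51.4 in condition A. It reached a log2 fold change of 1.72 with a deposited DESeq adjusted p of 0.00776. snR13, with its pair of targets in 25S, had 210.4 and 199 normalised reads in condition B, against 62.1 and 63.4 in condition A, nearly equal within each condition, and a log2 fold change of 1.71 (deposited DESeq adjusted p = 0.00155).

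Limma on the recovered reads called the same 6 higher and 0 lower, where 1.02% and 2.29% of features were called. It called 7 higher without the larger condition A library (1.53% of features), 5 without the smaller one (0.959%), 7 without the larger condition B library (2.52%) and 6 without the smaller one (1.82%). The single library left in a condition is then assumed to vary like the others. snR47 was lost without the smaller condition A library, and snR13, snR48, snR56, snR66 and snR71 were called with each library left out. With another scaling 4 were called, snR13, snR48, snR56 and snR71, both by total reads (0.831% of features) and by reads outside small nucleolar and spliceosomal RNA genes (0.863%), and snR47 and snR66 no longer passed. Scaling by total reads moved the median of all features to 0.33 and that of the members to 0.84, a difference of 0.51 in place of 0.37.

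In WT with 3MBPP1, all 46 listed box C/D genes had a deposited log2 fold change below 0, with 41 below 0 when libraries were scaled by total reads and snR4, snR39B, snR45, snR72 and snR190 then above. The median was -0.61, against -0.00 over all features, and by class it was -0.58 for independent genes, -0.62 for clusters and -0.79 for intronic genes. In the authors' deposited table, 9 of 46 members passed as lower, where 4.59% of all features did, and 0 passed as higher, where 2.78% did. Both condition B libraries lay below both condition A libraries at 30 members, where 26.7% of features did so, and above them at 0, where 27.0% did. The 9 were 4 independent genes, 3 cluster members and 2 intronic ones.

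Among the independent genes, snR71 had 58.6 and 31.2 normalised reads in condition B, against 188 and 131 in condition A. Its groups did not overlap, and its log2 fold change of -1.83 was the lowest of all members (deposited DESeq adjusted p = 0.00227). The guide snR13 had 137 and 151 normalised reads in condition B, against 371 and 328 in condition A, tight within each condition and apart between them. Its log2 fold change was -1.28, with the smallest deposited adjusted p of all members (1.33e-05, DESeq). snR87, an 18S guide to A436 at chrXI:431030-431138 on the minus strand, had 133 and 105 normalised reads in condition B, against 306 and 221 in condition A, a log2 fold change of -1.15 (deposited DESeq adjusted p = 0.0186). The longest methylation guide gene, snR63, at chrIV:323217-323471 on the minus strand, directs a 25S change at A2256. It had 3847 and 4271 normalised reads in condition B, against 7232 and 6003 in condition A, with a log2 fold change of -0.71 (deposited DESeq adjusted p = 0.00410).

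Of the clustered genes, snR74, which guides methylation of A28 in 18S, had 1058 and 1873 normalised reads in condition B, against 3591 and 2934 in condition A. The groups did not overlap, and the log2 fold change was -1.15 (deposited DESeq adjusted p = 0.02). snR57, the 18S guide to G1572 at chrXII:794937-795024 on the minus strand, had 63.3 and 77.6 normalised reads in condition B, against 169 and 137 in condition A. Its log2 fold change was -1.12 (deposited DESeq adjusted p = 0.00956). snR51, with targets in both 18S and 25S, lies at chrXVI:718700-718806 on the minus strand and had 286 and 249 normalised reads in condition B, against 416 and 444 in condition A, at -0.69 (deposited DESeq adjusted p = 0.0227). The intronic snR38, a 25S guide to G2815 in TEF4 at chrXI:283185-283279 on the plus strand, had 50.2 and 44.7 normalised reads in condition B, against 136 and 102 in condition A. The groups were apart, and its log2 fold change was -1.33 (deposited DESeq adjusted p = 0.00357). Its fellow intronic gene snR39, in RPL7A at chrVII:365163-365251 on the minus strand, had 82.5 and 48.9 normalised reads in condition B, against 155 and 125 in condition A, at -1.09 (deposited DESeq adjusted p = 0.0100). The call of snR39 was lost in 7 of its 9 alternatives, limma on the recovered reads among them.

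How many members passed turned on single libraries. In condition A the smaller library was above the larger one at 43 of 46 members, by a median log2 difference of 0.46. Limma on the recovered reads called 10 members lower and 0 higher, where 4.95% and 3.29% of features were called. Without the smaller condition A library it called 1 lower, snR13, where 1.71% of all features were called lower, and without the larger one it called 8 (2.53% of features). Without the smaller condition B library it called 9 (4.99%), and without the larger one 20 (7.58%).

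**Figure D2:**
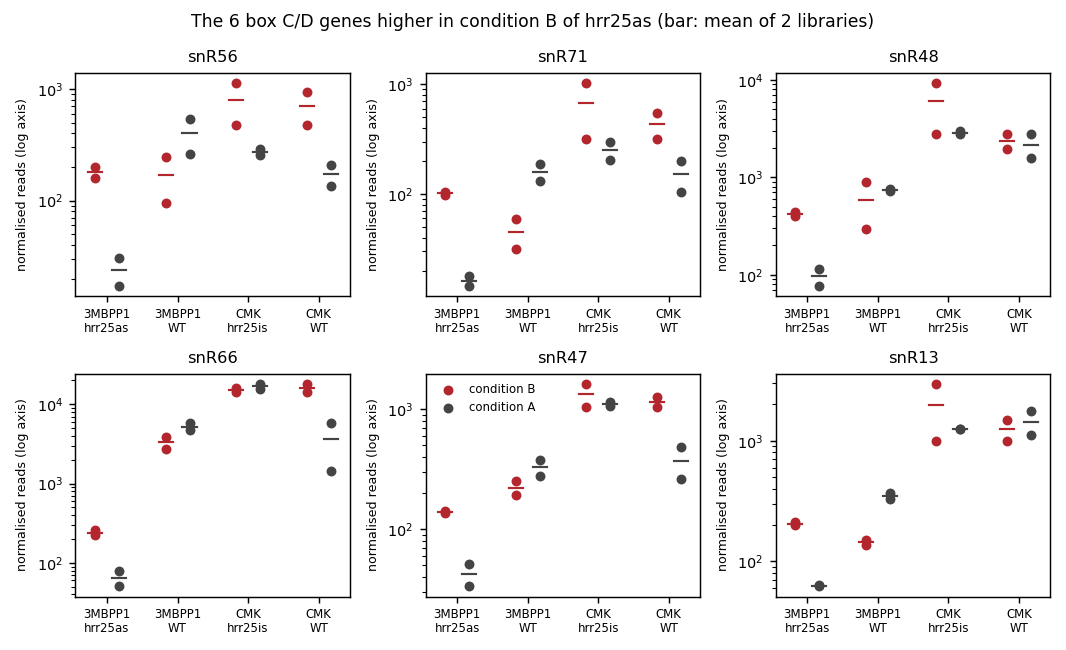
Normalised reads (log axis) of the 6 box C/D genes that passed as higher in condition B of hrr25as with 3MBPP1, in each library of the 4 tables (dots; condition B left of condition A, bars at the mean of 2). Values compare within a table only. In hrr25as the condition B dots lie above the condition A dots for all 6, with snR56 at 200 and 161 against 30.3 and 17.1, while in WT with 3MBPP1 those of snR13, snR47, snR56, snR66 and snR71 lie below.

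The difference between strains was tested next. Its size and direction, the opposite signs and the calls hold only if condition A is the same treatment in both 3MBPP1 tables. That is not known here, and strain and table cannot be told apart in this test either. The WT libraries used here are those with LEU2 reads that go against their label. Of 46 members, 36 had a log2 fold change above 0 in hrr25as and below 0 in WT, and 37 did when libraries were scaled by total reads. The share of all features with such signs is not given, so these counts do not set the members apart. The fold change in hrr25as minus that in WT was tested as a limma interaction term over 6246 features. Of these, 0.048% passed as higher in hrr25as and 0.048% as lower, and 2 members passed as higher. For snR71 the difference was 4.48 ± 0.50 on the log2 scale (SE of the fit, 8 libraries), with deposited fold changes of 2.65 in hrr25as and -1.83 in WT (limma adjusted p = 0.0189). For snR13 it was 2.97 ± 0.26 (SE of the fit, 8 libraries), with deposited fold changes of 1.71 in hrr25as and -1.28 in WT (limma adjusted p = 0.0112). The next were snR66 at 2.58 (limma adjusted p = 0.0542), snR56 at 4.24 (limma adjusted p = 0.0797) and snR47 with the same adjusted p, which did not pass. The median difference over members was 1.29, against -0.02 over all features.

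The other 4 genes that passed in hrr25as did not pass in WT. With 3MBPP1 in WT snR56 had 95.6 and 246 normalised reads in condition B, against 539 and 264 in condition A, at -1.23. The groups were apart, but condition B and condition A each spread widely, and its deposited DESeq adjusted p was 0.663. snR66 had 2742 and 3898 normalised reads in condition B, against 5800.2 and 4701 in condition A in WT, at -0.66. snR47 had 194 and 251 normalised reads in condition B, against 379 and 278 in condition A in WT, at -0.56. Condition B was the lower one at both, and neither passed. snR48 had 293 and 889 normalised reads in condition B, against 723 and 758 in condition A in WT, at -0.33, and its groups overlapped.

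Both calls rested on all WT libraries: leaving out any 1 WT library left 0 members past the threshold, with differences of 2.88 to 3.06 for snR13 and 4.03 to 4.93 for snR71. Leaving out 1 hrr25as library left 1 to 4, with snR13 called each time and snR71 not called without the smaller library of either condition. A total-read scaling gave 5 members, and scaling by reads outside small nucleolar and spliceosomal RNA genes gave 4. A z test on the deposited fold changes gave 5. Shares of all features called by these alternatives are not given, so their counts cannot be set against a background.

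**Figure D3:**
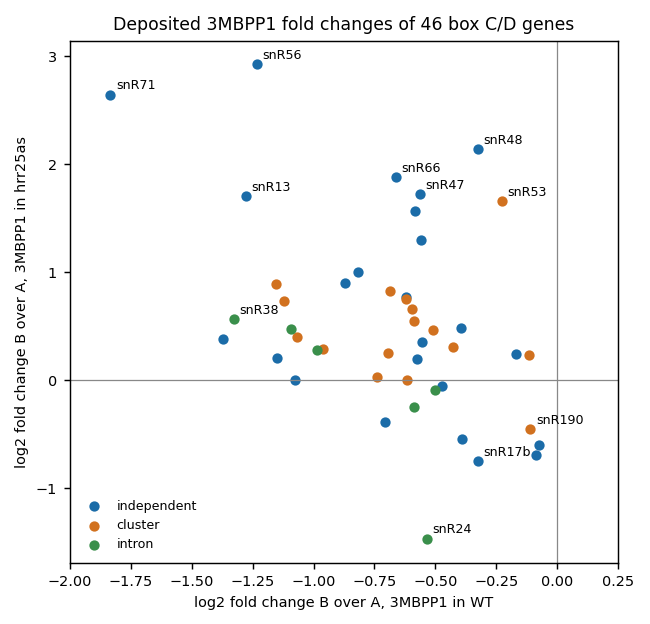
Deposited log2 fold change of each of 46 box C/D genes in hrr25as with 3MBPP1 (vertical axis) against that in WT with 3MBPP1 (horizontal axis), condition B over A, coloured by transcription class. All points lie left of 0, and 36 lie above 0 on the vertical axis, snR56 at 2.93 and -1.23 and snR71 at 2.65 and -1.83.

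In hrr25is with CMK, 0 of 47 members passed in the authors' deposited table, where 0.0148% of features passed as higher and 0.0296% as lower. Limma called 0 as well. A deposited DESeq unadjusted p under 0.05 was reached by 1 member, snR190, and by 154 of 6760 features. By limma 4 members reached it, and the share of all features there is not given. The median log2 fold change was 0.17, against 0.01 over all features, with 31 members above 0 and 16 below, and with 41 above 0 when scaled by total reads. Condition B libraries lay above condition A libraries at 9 members (17.4% of features) and below at 3 (17.7%).

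Without the library present in both CMK tables, 1 condition B library of hrr25is remained, and limma called 14 members higher, where 5.25% of features were called, and snR61 lower, where 7.5% were. snR48 had 9235 normalised reads in that condition B library, against 2990 and 2766 in condition A, a log2 difference of 1.68 ± 0.23 (SE of the fit). snR71 had 1023 in condition B, against 203 and 301 in condition A, at 2.05 ± 0.24. snR56 had 1125 in condition B, against 258 and 293 in condition A, at 2.03 ± 0.24, and snR13 had 2973 in condition B, against 1249 and 1262 in condition A, at 1.24 ± 0.21. With both libraries the deposited log2 fold changes were 1.06 for snR48, 1.41 for snR71, 1.54 for snR56 and 0.66 for snR13, none of which passed. The shared library gave 2807 normalised reads for snR48, 319 for snR71, 479 for snR56 and 1005 for snR13. These 4 are also among the 6 that passed as higher in hrr25as with 3MBPP1. The overlap over all features is not given. A shared direction holds only if condition A is the same kind of treatment, inhibitor or DMSO, in both tables. snR66 and snR47, the other pair of the 6, were at -0.14 and 0.27 in the deposited table. The other 10 of the 14 were snR38, snR39, snR51, snR53, snR54, snR62, snR65, snR73, snR76 and snR77. A single library carries all of these values, and the fit assumes that it varies like the others. The median over the members was 0.22. With that library kept and the other condition B library left out, snR52 was higher and snR69 lower, where 0.917% and 1.26% of features were called.

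In WT with CMK, box C/D RNAs were the only features that passed in the deposited table: 9 of 6760 features did, 0.133% of the table, and all 9 were members, higher in condition B. None of the members passed as lower, where 0.0% of features did. The median log2 fold change was 1.25, against 0.01 over all features, with 42 members above 0 and 5 below. By class it was 0.90 for independent genes, 1.47 for clusters and 1.15 for intronic genes. Condition B libraries lay above condition A libraries at 30 of 47 members (12.6% of features) and below at 2 (12.8%). The 9 were 5 independent genes, 3 cluster members and 1 intronic gene.

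snR61, a 25S guide to A1133 in the cluster with snR57 and snR55, had 8166 and 18191 normalised reads in condition B, against 1735 and 299 in condition A. Its log2 fold change of 3.70 was the largest (deposited DESeq adjusted p = 9.69e-05), although the condition A libraries alone differed by 2.54 on the log2 scale. snR67, a 25S guide to G2619 and U2724 at chrV:61352-61433 on the plus strand, had 5390.3 and 6429 normalised reads in condition B, against 1935 and 771 in condition A. Its log2 fold change was 2.13 (deposited DESeq adjusted p = 1.06e-10). The 25S guide snR66 had 18222 and 14285 normalised reads in condition B, against 5892 and 1443 in condition A. It differed by 2.15 on the log2 scale (deposited DESeq adjusted p = 2.18e-10). snR79, an 18S guide to C1007 at chrXII:348427-348510 on the minus strand, had 1309.7 and 1067 normalised reads in condition B, against 320.3 and 169 in condition A, at 2.28 (deposited DESeq adjusted p = 1.70e-06). snR50, the guide to G867 of 25S at chrXV:259489-259578 on the plus strand, had 2136 and 2183 normalised reads in condition B, against 741 and 219 in condition A, at 2.17 (deposited DESeq adjusted p = 4.77e-07).

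The acetylation guide snR45, at chrXVI:821732-821903 on the plus strand, had 6864 and 5816 normalised reads in condition B, against 2369 and 1158 in condition A. It had a log2 fold change of 1.85 (deposited DESeq adjusted p = 2.22e-07), while the other acetylation guide, snR4, was at -0.81 (adjusted p = 1.00 there). snR74 had 1655 and 1221 normalised reads in condition B, against 550.0 and 268 in condition A, with a log2 fold change of 1.81 (deposited DESeq adjusted p = 0.00184). It is the only member that passed in both WT tables, as lower in condition B with 3MBPP1 and higher in condition B with CMK. These directions are opposite only if condition A is the same kind of treatment, inhibitor or DMSO, in both tables. The WT libraries of these tables differ in their marker reads. snR47 had 1259.7 and 1045 normalised reads in condition B, against 481 and 261 in condition A, at 1.64 (deposited DESeq adjusted p = 0.00965). The intronic snR24, a 25S guide in ASC1 at chrXIII:499984-500072 on the minus strand, had 7086 and 7000.0 normalised reads in condition B, against 4088 and 1206 in condition A, at 1.41 (deposited DESeq adjusted p = 0.0302). In all 9, both condition B libraries lay above both condition A libraries, and the larger condition A library was the lowest of the 4.

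Spread between replicates was wide in this table. The smaller condition A library was above the larger one at 45 of 47 members, by a median log2 difference of 0.89, against a median absolute difference of 0.28 over all features. Limma on the recovered reads called 0 members and 0.0% of features, with a smallest adjusted p of 0.995 over members. At a limma unadjusted p under 0.05 there were 27 members, and the share of all features there is not given. At a deposited DESeq unadjusted p under 0.05 there were 23 members, against 68 of 6760 features. Each fit with 1 library left out called more. In this table the shared library carries the marker of its label, and without it condition B is the smaller library alone. That library stands apart at snR190, which took 16.1% of the members' reads there, against 72.9% to 94.1% in all others. Values without the shared library rest on it. Without the smaller condition B library 18 members were higher (0.828% of features), without the smaller condition A library 15 (0.385%), and without the larger condition A library 2, snR52 and snR61 (0.133%). Without the shared library 29 were higher (7.69% of features) and 2, snR190 and snR4, were lower (3.55%). All 9 deposited calls were among those 29, and the median of the members was then 1.57. Of the genes that passed in hrr25as with 3MBPP1, snR56 had 933 and 479 normalised reads in condition B, against 211 and 136 in condition A, at 2.02, and snR71 had 551 and 319 normalised reads in condition B, against 201 and 105 in condition A, at 1.51. The groups were apart at both, and neither passed in the deposited table. snR13 was at -0.20 and snR48 at 0.13, with overlapping groups.

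The difference between hrr25is and WT with CMK was fitted with the shared library kept in WT only. Condition B of hrr25is then has 1 library, which is assumed to vary like the others. The size and sign of a difference hold only if condition A is the same treatment in both tables, which is not known here. Strain and table cannot be told apart either. Of 47 members 0 passed the limma interaction test, as did 0.0% of features, and the smallest adjusted p over members was 0.418. At an unadjusted p under 0.05 there were 22 members, against 374 of 6760 features. The z test on deposited values called 5, but it holds the shared library in condition B of both tables and treats their fold changes as independent, which they are not. The median difference was -0.52, against -0.04 over all features.

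**Figure D4:**
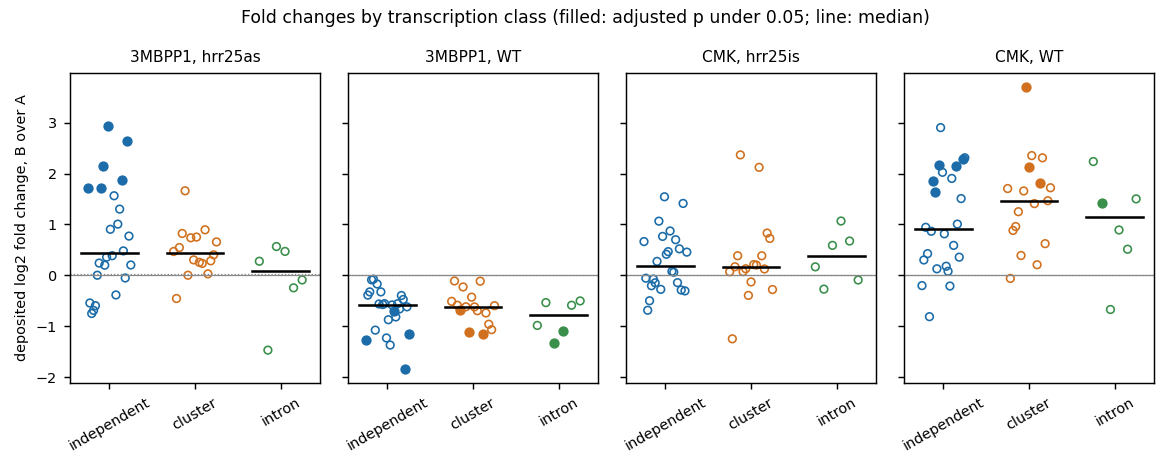
Deposited log2 fold change (condition B over A) of every listed box C/D gene, by transcription class, in the 4 tables; filled points have a deposited adjusted p under 0.05, black lines are class medians and the dotted line is the median of all features. The 6 filled points of hrr25as lie above 0 among independent genes, the 9 of WT with 3MBPP1 lie below 0 in all classes, hrr25is has none, and the 9 of WT with CMK lie above 0 in all classes.

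The cluster from snR78 to snR72, at chrXIII:297278-298651 on the plus strand, holds 7 guide genes separated by 81 to 141 bases that are cut from 1 precursor. Their levels were unequal within every library, with the highest member 19.3 to 323 times the lowest in RPKM. snR76, which guides methylation of C2197 in 25S, was highest in hrr25as with 3MBPP1, with 878 and 657 RPKM in condition B, against 618 and 388 RPKM in condition A. In WT with 3MBPP1 snR74 was highest, with 957 and 2044 RPKM in condition B, against 2786 and 2773 RPKM in condition A. The lowest listed gene was snR72 in both strains. In WT it had 41.8 and 103 RPKM in condition B, against 63.2 and 66.3 RPKM in condition A. With CMK, snR76 or snR77 was highest in each library. snR77, the 18S guide to U578, had 2236 and 926 RPKM in condition B of hrr25is, against 779 and 722 RPKM in condition A. The sixth gene in order, snR73, a guide to C2959 of 25S, had the lowest level of the cluster in both CMK tables, at 27.6 and 4.42 RPKM in condition B of hrr25is, against 3.37 and 2.34 RPKM in condition A.

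Fold changes of the cluster genes had 1 sign in both 3MBPP1 tables and in WT with CMK, and differed in size. In hrr25as with 3MBPP1 the 6 listed members were between 0.03 (snR75) and 0.89 (snR74), on 2 to 441 reads per library, and 0 passed. With 3MBPP1 in WT they were at -0.60 (snR78), -1.07 (snR77), -0.96 (snR76), -0.74 (snR75), -1.15 (snR74) and -0.11 (snR72), and only snR74 passed. snR78 had 121 and 284 normalised reads in condition B, against 310.3 and 302 in condition A. snR77 had 528 and 816 normalised reads in condition B, against 1637 and 1181 in condition A. Groups did not overlap at either gene, although the condition B libraries of snR78 were themselves far apart. snR76 had 652 and 387 normalised reads in condition B, against 1177 and 848 in condition A. snR75, a guide to G2288 of 25S, had 90.8 and 249.8 normalised reads in condition B, against 333 and 235 in condition A. snR72, a guide to A876 of 25S, had 51.4 and 105 normalised reads in condition B, against 90.8 and 78.2 in condition A. The groups were apart for snR76 and overlapped for snR75 and snR72. With CMK in hrr25is they were between -0.28 (snR78) and 2.12 (snR73, on 60 and 16 reads in condition B, against 6 and 5 in condition A). Without the shared library the hrr25is values were between -0.68 (snR78) and 2.78 (snR73), and limma called snR73, snR76 and snR77 higher (5.25% of features). With CMK in WT they were between 0.21 (snR73) and 2.31 (snR75). Those were between 0.71 (snR73) and 2.78 (snR75) with the shared library left out, and all but snR73 were called higher (7.69% of features).

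**Figure D5:**
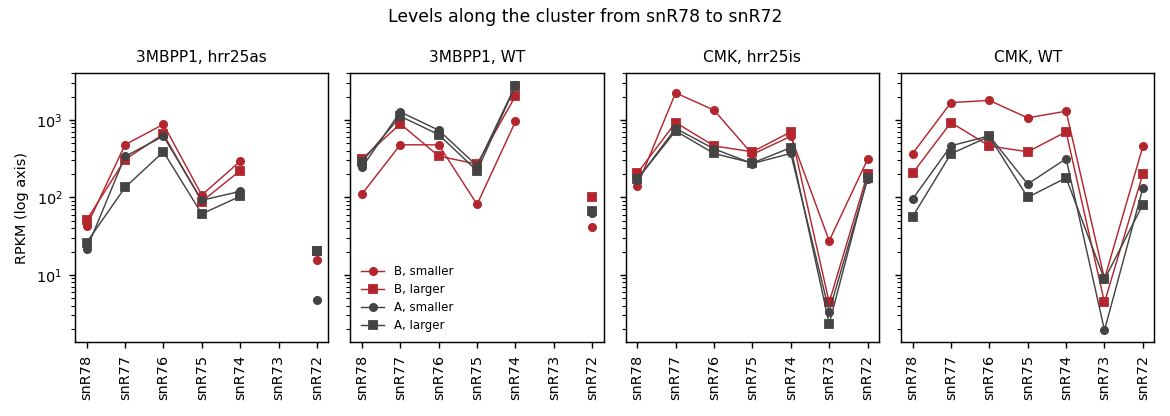
RPKM (log axis) of the 7 genes of the cluster in transcription order from snR78 to snR72, 1 line per library, condition B in red and condition A in grey, in the 4 tables; snR73 has no row in the 3MBPP1 tables. The profile is uneven in each library, with snR73 lowest in both CMK tables, at 1.93 to 27.6.

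The other clusters were uneven too. In the cluster of snR57, snR55 and snR61 the ratio of highest to lowest level ranged from 1.92 to 140 between libraries, and in that of snR67 and snR53 from 22.8 to 571, with snR53 the lower. The cluster of snR41, snR70 and snR51 was the most even, at 1.42 to 4.42.

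Among the RNAs of precursor processing, the genes of U3 did not pass in any deposited table. With 3MBPP1 in hrr25as snR17a had 4836 and 5219.9 normalised reads in condition B, against 6768 and 7886 in condition A, and both condition B libraries were the lower ones. In WT with 3MBPP1 it had 80514 and 71555 normalised reads in condition B, against 110009 and 89106 in condition A, also below. Its log2 fold changes were -0.54 in hrr25as and -0.39 in WT. In hrr25as the other U3 gene, snR17b, had 1029.8 and 1604 normalised reads in condition B, against 1658 and 2770.1 in condition A. WT cells with 3MBPP1 had 25784 and 29557 normalised reads in condition B, against 37737 and 31612 in condition A. Here the log2 fold changes were -0.75 in hrr25as and -0.33 in WT, and limma called snR17b lower in hrr25as without the larger condition B library (5.16% of features were then lower), but with no other library left out. With CMK in hrr25is, snR17a was at -0.06 and snR17b at -0.69, and in WT at 0.30 and 0.94. With the shared library left out they were at 0.05 and -0.42 in hrr25is and at 0.42 and 0.86 in WT, and limma called neither. The level of snR17a was 0.841 to 4.43 times that of snR17b within a library, with a median of 2.67. snR17a overlaps IRC13 on the same strand, and how overlapping reads were counted is not known here.

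snR128, the U14 RNA that also guides methylation of C414 in 18S, lies 69 bases downstream of snR190 in a shared precursor. In hrr25as with 3MBPP1 it had 1124 and 653 normalised reads in condition B, against 772 and 512 in condition A, with the groups overlapping, at 0.47. With 3MBPP1 in WT it was at -0.51. In hrr25is with CMK it was at 0.07, while in WT with CMK it had 15523 and 8632 normalised reads in condition B, against 5249.9 and 2155 in condition A, with the groups apart, at 1.71 (deposited DESeq adjusted p = 1.00). Leaving the shared library out put it at 0.01 in hrr25is and 2.21 in WT (limma adjusted p = 0.988 in hrr25is and 1.77e-09 in WT). snR190 acts in large-subunit assembly. In hrr25as it had 188478 and 145764 normalised reads in condition B, against 235550.2 and 222784 in condition A, at -0.46, with condition B below condition A. WT with 3MBPP1 had 2640376 and 1908587 normalised reads in condition B, against 2944206 and 1966149 in condition A, overlapping, at -0.11. In hrr25is it had 859299 and 954030.2 normalised reads in condition B, against 1825278 and 2480662 in condition A, again below condition A, at -1.25 (deposited DESeq unadjusted p = 0.0404, adjusted p = 1.00). With CMK in WT it had 55918 and 954030.2 normalised reads in condition B, against 598170.3 and 455003 in condition A, and the condition B libraries alone differed by 4.09 on the log2 scale. When the shared library was left out, snR190 was at -1.31 in hrr25is (limma adjusted p = 0.772) and at -3.22 in WT (limma adjusted p = 0.00200). Within a library snR190 was 2.39 to 372 times snR128 per length. The lowest of these ratios was that of the smaller condition B library of WT with CMK, and the next was 73.3. The WT values without the shared library have that smaller library as their only condition B library.

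The 6 intronic RNAs did not follow their hosts in every table. The hosts are EFB1, ASC1, TEF4, RPL7A, IMD4 and RPL7B, which mostly serve translation. In hrr25as with 3MBPP1, ASC1 was the 1 host that passed, as lower, where 3.12% of features did. It had 865 and 869.9 normalised reads in condition B, against 5232 and 4379 in condition A (log2 fold change -2.47, deposited DESeq adjusted p = 1.91e-11). snR24 inside it had 18.1 and 18.1 normalised reads in condition B, against 54.8 and 45.4 in condition A, at -1.47 (deposited DESeq adjusted p = 0.226), the lowest of the members in that table. The log2 fold change of the RNA minus that of its host was above 0 for all 6, from 0.30 (snR54) to 1.84 (snR39).

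All 6 host genes passed as lower in condition B of WT with 3MBPP1 in the authors' deposited table, where 4.59% of features did. Their log2 fold changes were -0.66 (EFB1) to -1.66 (ASC1). Of the RNAs in them snR38 and snR39 passed as lower, the second only in the deposited table and 2 alternatives. snR24 had 486 and 474 normalised reads in condition B, against 771 and 622 in condition A, at -0.54 against -1.66 for its host. The RNA was less far down than the host in this pair, and its groups did not overlap. snR18, a 25S guide in EFB1, had 596 and 1148 normalised reads in condition B, against 2062 and 1389 in condition A, at -0.98 against -0.66. snR54, an 18S guide in IMD4, had 172 and 158 normalised reads in condition B, against 307 and 189 in condition A, at -0.59 against -1.15. Both had groups apart, whereas those of the next gene overlapped. snR59, in RPL7B, is annotated to the same 25S base, A807, as snR39 in RPL7A, and had 43.02 and 48.9 normalised reads in condition B, against 87.3 and 42.9 in condition A, at -0.50 against -0.70.

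With CMK in hrr25is 0 hosts passed in the deposited table, and the intronic RNAs were between -0.27 (snR24) and 1.07 (snR39), with the shared library as 1 of the condition B pair. Without it limma called 3 hosts lower, where 7.5% of features were, ASC1 at -2.10, RPL7B at -1.65 and RPL7A at -1.31, and called snR38 (1.10), snR39 (1.48) and snR54 (1.28) higher, where 5.25% were. ASC1 had 3631 normalised reads in the hrr25is condition B library and 9684 in the shared one, against 13530.0 and 17929 in condition A. In WT with CMK, snR24 passed at 1.41 while ASC1 was at 0.38, and snR18 was at 2.24 while EFB1 was at -0.64. Without the shared library limma called EFB1 (-1.89) and RPL7B (-0.91) lower (3.55% of features) and snR18, snR24, snR39 and snR59 higher (7.69%). Each intronic RNA overlaps its host on the same strand, so reads of unspliced host RNA may be counted for either, and their part was not tested.

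The 15 members not described one by one had no deposited adjusted p under 0.05. Their log2 fold changes in hrr25as with 3MBPP1 were between -0.69 (snR39B) and 1.66 (snR53), with 12 above 0. The value of snR53 rests on means of 4.99 normalised reads in condition B and 1.58 in condition A. In WT with 3MBPP1 they were between -1.37 (snR60) and -0.08 (snR4), all below 0. With CMK in hrr25is they were between -0.50 (snR39B) and 2.37 (snR53), with 11 above 0, and in WT between -0.81 (snR4) and 2.90 (snR52), with 14 above 0. Without the shared library they were between -0.30 (snR39B) and 3.14 (snR53) in hrr25is, with 13 above 0 and 3 called higher (5.25% of features). In WT they were then between -1.19 (snR4) and 3.54 (snR52), with 14 above 0, 6 called higher (7.69% of features) and snR4 lower (3.55%).

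Gene length moved with some of these values. The genes are 78 to 490 bases long with a median of 98, and 26 are shorter than the reads of 100 bases. With CMK in WT the median log2 fold change was 1.51 for the 26 shorter genes and 0.59 for the 21 others, with 8 and 1 called. Spearman's rho between length and fold change over members was -0.27 for 3MBPP1 in hrr25as and 0.28 in WT (n = 46 each), and -0.02 for CMK in hrr25is and -0.43 in WT (n = 47 each), or 0.05 and -0.40 without the shared library. These describe genes of the same libraries, and the part of length in the calls was not tested.

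Proteins of the pathway were followed in a list of 44 genes. In hrr25as with 3MBPP1, 1 of 44 was higher and 1 lower in the authors' deposited table, near the 1.2% and 3.12% of all features that were. The 1 that was higher was NRD1, which binds nascent RNA and ends transcription of independent small nucleolar RNA genes. It had 2104 and 1895 normalised reads in condition B, against 921 and 841 in condition A (log2 fold change 1.18, deposited DESeq adjusted p = 0.00497). NRD1 in WT with 3MBPP1 was at 0.01, with 544 and 516 in condition B, against 509 and 545 in condition A. NAB3, SEN1 and the other 6 termination genes did not pass. The 1 that was lower in hrr25as was SNU13, which binds the kink-turn of the RNA, with 648 and 854 normalised reads in condition B, against 1477 and 1797 in condition A (log2 fold change -1.12). The others of the core were at -1.45 (NOP1, the methyltransferase), -0.75 (NOP56) and -0.93 (NOP58), which did not pass.

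With 3MBPP1 in WT, 7 of 44 were lower in the authors' deposited table, where 4.59% of features were, and 0 higher, where 2.78% were, and all 4 core proteins were among them. NOP1 had 1132 and 1961 normalised reads in condition B, against 2931 and 3408 in condition A (log2 fold change -1.04). NOP56 was at -1.07, NOP58 at -0.84 and SNU13 at -1.09. The others were SRP40, a nucleolar chaperone, at -0.99, the La protein LHP1 at -0.76, and AIR1 of the TRAMP complex at -0.66. With CMK 0 of 44 passed in either direction in either deposited table, and the core proteins were between -0.49 and 0.01. Limma without the shared library called 3 higher in hrr25is, NRD1 (0.81), TRF5 and REF2, where 5.25% of features were, and 2 lower, SNU13 (-0.66) and SRP40, where 7.5% were. NRD1 had 5705 normalised reads in the hrr25is condition B library and 3733 in the shared one, against 2694 and 3937 in condition A. In WT limma then called 0 higher and 3 lower, SNU13 (-0.96), LSM2 and LSM6, where 3.55% of features were lower.

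The other small nucleolar RNAs annotated in the genome, mostly of the H/ACA type that guide pseudouridine formation, gave medians of -0.11 (28 genes) in hrr25as with 3MBPP1, -0.44 (28) in WT with 3MBPP1, 0.02 (29) in hrr25is with CMK and 0.71 (29) in WT with CMK. Of these, 2 of 28 passed in the deposited hrr25as table, both as higher, where 1.2% of all features did, and 0 passed in each of the other deposited tables, where 4.59% of features were lower and 2.78% higher in WT with 3MBPP1 and at most 0.133% passed in either direction with CMK. Limma without the shared library called 4 of 29 higher and 1 lower in hrr25is (5.25% and 7.5% of features), at a median of -0.14, and 14 of 29 higher and 0 lower in WT (7.69% and 3.55%), at a median of 0.91. The medians of the box C/D members were 0.39 in hrr25as and -0.61 in WT with 3MBPP1, and 0.17 in hrr25is and 1.25 in WT with CMK, and the difference between the types was not tested.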

How the data were processed

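Ribosomal-RNA-depleted total RNA of 16 samples was read as 100-base single reads. Per the submitters' processing notes, CASAVA 1.8.2, STAR 2.3.0 and HTSeq 0.6.0 were used on build sacCer3. Strand handling of the counting and the DESeq version are not given in the sources used here. Per the file headers, each deposited condition mean is a mean of normalised counts over the libraries of a condition. The authors' fold is the ratio of the condition B mean to the condition A mean, and their log2 value is its logarithm, which held in every row. Deposited p-values, raw and adjusted, come from the authors' DESeq comparison, and an adjusted p under 0.05 counted as passing.

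From each condition mean, 1 pair of whole reads and a pair of size factors were recovered, for 100% of means in all 4 tables, and checked on simulated data. Reads were divided by those size factors (normalised reads). Limma 3.58.1 in R 4.3.3, with a trend and a prior count of 0.5, gave the second test and the interaction terms over all features. An alternative interaction test divided the difference of the deposited log2 fold changes by standard errors derived from the deposited p-values, and for CMK these come from tables that share a library. Fits of hosts, pathway genes and other small nucleolar RNAs without that library were chosen after seeing the data. Features with low values were kept, and an alternative needed a mean of at least 10. Labels do not say that replicates were separate cultures, so p-values measure the spread between these samples. An exact permutation test of 2 libraries against 2 cannot go below 0.333, so none is given. Positions come from the R64 annotation. The members, roles, pathway list and tests were chosen with earlier results of these data known. Named one by one were members past the adjusted p in any table or interaction, U3, U14, snR190, the snR72 to snR78 cluster and intronic members; pathway genes named passed the adjusted p or belong to the core proteins. Other genes named were chosen after their values were seen. Depth per library is 4275991 to 34122412 reads.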

Additional observations from a re-analysis of the deposited data

Results flagged for a closer look

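The fold change of snR71 with 3MBPP1 differed between the strains by 4.48 on the log2 scale, hrr25as minus WT, in the interaction test between the tables (limma adjusted p = 0.0189). That of snR13 differed in the same way, by 2.97 (limma adjusted p = 0.0112). Both condition B libraries were higher in hrr25as and lower in WT than both condition A libraries at each gene. The same held at 13 of the 46 members, snR13 and snR71 among them. Both calls rested on all WT libraries, whose LEU2 reads go against their label. The differences hold only if condition A is the same treatment in both tables, and strain and table cannot be told apart. No group had enough samples for a test of single libraries that stand apart.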

How the results depend on the processing

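Results were recomputed with another test, scaling, prior count or filter, or without a library. Of the counts and medians of members, 96 stayed within 1.5 times the count or 1 SD of the median, and 38 moved. Of the values of single named genes 0 reversed, 157 stayed past the threshold and 85 did not. In hrr25as with 3MBPP1 the median of 0.39 became 0.53 with limma, 0.84 scaled by total reads, 0.84 by reads outside small nucleolar and spliceosomal RNA genes (the 0.33 shift of all features is part of it), and 0.44 to 0.60 with 1 library left out, and 0 to 1 members were lower. In WT with 3MBPP1 the 9 members lower became 5 when scaled by reads outside those genes, and 1 to 20 with 1 library left out. In hrr25is the median of 0.17 became 0.50 scaled by total reads and 0.45 by the other reads, and with 1 library left out 0 to 14 were higher and 0 to 1 lower. In WT with CMK the 9 members higher became 0 with limma under each of 2 prior counts and under both scalings, 2 to 29 with 1 library left out, and 0 to 2 were lower. The 2 members that differed between the 3MBPP1 tables became 5 scaled by total reads, 4 by the other reads, 5 by the z test and 0 to 4 with 1 library left out, and the 0 between the CMK tables became 5 by the z test, which holds the shared library in both tables and so is another contrast. As a percent of reads outside small nucleolar and spliceosomal RNA genes, the lowest share of members was 2.70 in place of 2.40 and the highest 36.0 in place of 22.4. The cause of these shifts was not tested, and shares of all features are not given for the alternative interaction tests. No paired analysis was possible because the recovered libraries carry no replicate number. Leaving out the only hrr25is condition B library of the CMK interaction gave no value. Depth limits the lowest genes most, with snR72 at 2 reads in 1 hrr25as library and snR53 at a mean of 1.58 normalised reads in condition A of hrr25as.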
